A study of Homo sapiens with 23 samples.

Results

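RNF24, PANK2, SMOX, MAVS, AP5S1, CDC25B and ADRA1D are 7 protein-coding genes of chromosome 20p13 that surround SVA_E_r223, a transposon copy that belongs to the de-repressed SVAs of pluripotent cells. They lie between 3.7 and 4.3 Mb of chromosome 20 (hg19) and are 7 of the 36085 annotated genes with a transcript in the RNA files. They were listed by name, with earlier results of these data known, and not by position alone. RNF24 was also named by the study as a regulated gene from these same libraries, so its fall below is not independent evidence. The stretch holds 13 further annotated genes, of which 6 had a transcript in the files.

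All cells were NCCIT, a human embryonal carcinoma line with pluripotent features. SCi-NCCIT cells carried a piggyBac dCas9-KRAB transgene that doxycycline switches on, together with 2 constantly expressed sgRNAs against SVAs that also match the LTR5Hs repeat. The cells were kept under drug selection and compared after 72 hours with 2 µg/mL doxycycline and without it. RNA was read in 3 libraries per condition, H3K9me3 and YY1 in 2 each, OCT4 in 1 each, and H3K9me3 also in 1 library of parental NCCIT, which lacks both transgenes. No library came from doxycycline-treated cells without the guides or without dCas9-KRAB, so the effect of the drug, of the fusion protein and of its guided action cannot be told apart. Nothing says whether the RNA libraries came from separate cultures, so p-values measure the spread between these libraries only.

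SVAs are young retrotransposons found only in apes and humans, and parts of them descend from Alu sequences and from a retrovirus. KRAB, a repression domain of zinc finger proteins, recruits enzymes that lay down H3K9me3, a mark of silent chromatin. YY1 is a zinc finger factor that binds active promoters and enhancers and can join them, and OCT4 (POU5F1) is a POU factor that maintains pluripotency.

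SVA_E_r223 lies at chr20:4012514-4014746 (hg19, 2233 bp) in an intergenic stretch, and a 353 bp SVA_A copy, SVA_A_r245, lies 530 bp beyond it at chr20:4015277-4015629. Both are among the 751 SVAs that the study lists as de-repressed, and no annotated gene overlaps either. RNF24 runs away from the SVA on the minus strand, and its start site at position 3996205 was the nearest of the 7, 16.3 kb away. SMOX, on the other side, started 114.7 kb away. PANK2 (142.5 kb), MAVS (185.0 kb), AP5S1 (211.3 kb) and CDC25B (235.6 kb) lay beyond RNF24, and ADRA1D (215.2 kb) beyond SMOX. The pseudogenes FTLP3 (8.0 kb) and RPL21P2 (26.0 kb) were nearer than SMOX but had next to no reads, with group means of at most 0.00767 CPM (counts scaled to the library's size).

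YY1 and OCT4 were both found on SVA_E_r223 without and with doxycycline, and H3K9me3 was present on or beside it in both conditions. From browser tracks, the study describes loss of both factors and gain of H3K9me3 at a full-length SVA-E near RNF24, not named there. The values below are called peaks, a different measure from those tracks, and they do not show that loss or that gain. Peaks were called in each library separately, and the fold enrichment of a peak is its height over background as the authors' caller gave it for that library. YY1 peaks covered the SVA at fold enrichments of 6.98 and 7.0 without doxycycline and 6.85 and 6.34 with it. The summits lay 1769 to 1832 bp from the first base of the element. OCT4 peaked at 21.61 without doxycycline and 13.58 with it, 1984 and 1989 bp from the first base, and the mean OCT4 summit lay 182 bp beyond the mean YY1 summit. Both treated YY1 values were below both untreated ones, by little, and OCT4 had no replicate.

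A YY1 peak in all 4 libraries was found on 32 of the 751 SVAs (4.26%), an OCT4 peak in both libraries on 3 (0.399%), and peaks of both factors in all 6 libraries on 2 (0.266%). Of the 65 SVAs with YY1 in both libraries without doxycycline, 32 (49.2%) kept it in both with doxycycline and 21 (32.3%) lost it in both. The study, by its own measure, reports YY1 on more SVAs than these 65. Of the 57 with OCT4 without doxycycline, 54 (94.7%) had no peak with it, and SVA_E_r223 was among the 3 that did. The OCT4 list with doxycycline was also shorter as a whole, with 23352 peaks against 50775. Peaks were taken as shared between 2 libraries when the summit of each lay inside the peak of the other. Over the 19438 OCT4 peaks shared in this way, the median ratio of fold enrichments, with over without doxycycline, was 0.696. Of these, 38.5% had a ratio below the 0.628 of SVA_E_r223. For YY1, library 1 over library 1 and library 2 over library 2, the ratios on SVA_E_r223 were 0.981 and 0.906, against medians of 1.2 and 1.22 over shared peaks, of which 23.0% and 14.6% were lower.

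SVA_A_r245 had YY1 in all 4 libraries, at 5.99 and 9.95 without doxycycline and 9.42 and 16.18 with it. Dividing treated by untreated libraries of the same number gave ratios of 1.57 and 1.63, and 84.3% and 85.5% of shared YY1 peaks had lower ones. The labels do not say whether libraries of the same number belong together. The second value without doxycycline exceeded the first with it, so the conditions overlapped. No OCT4 or H3K9me3 peak touched this copy in any library.

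At SVA_E_r223 the place of the H3K9me3 peak differed between the libraries of each condition. In parental NCCIT no peak lay within 5 kb of it, and the nearest ended 6580 bp away. Without doxycycline, the first library had a peak over 53.2% of the SVA at a fold enrichment of 5.73, and the second had a peak of 9.56 that reached only 4 bp into it. With doxycycline, the first library had a peak over 58.3% of the SVA at 6.74, and in the second a peak of 10.85, 2500 bp wide, ended 16 bp before its first base. Peaks lay on the element in the first library of each condition and against its edge on the RNF24 side in the second.

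Counting the SVA and 5 kb on each side, H3K9me3 peaks covered 2595 and 927 bp without doxycycline and 1758 and 2500 bp with it, and 0 bp in parental cells. None of that length was on the side away from RNF24. For background, 136 of the 751 SVAs (18.1%) gained H3K9me3, meaning a peak in each treated library and none in the untreated ones, and SVA_E_r223 was not one of them. The study, by its own measure, reports H3K9me3 accumulation on most of the 751, so this rule is not the same as its count. The pattern of SVA_E_r223, a peak in 3 of the 4 SCi-NCCIT libraries in this arrangement, was held by 6 SVAs (0.799%), itself included. It rests on the overlap of 4 bp and the gap of 16 bp given above, so it depends on exact peak edges. Reads were kept only where they mapped with a quality over 10, so the absence of a peak in a repeated part of the element does not show the absence of the mark.

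**Figure D1:**
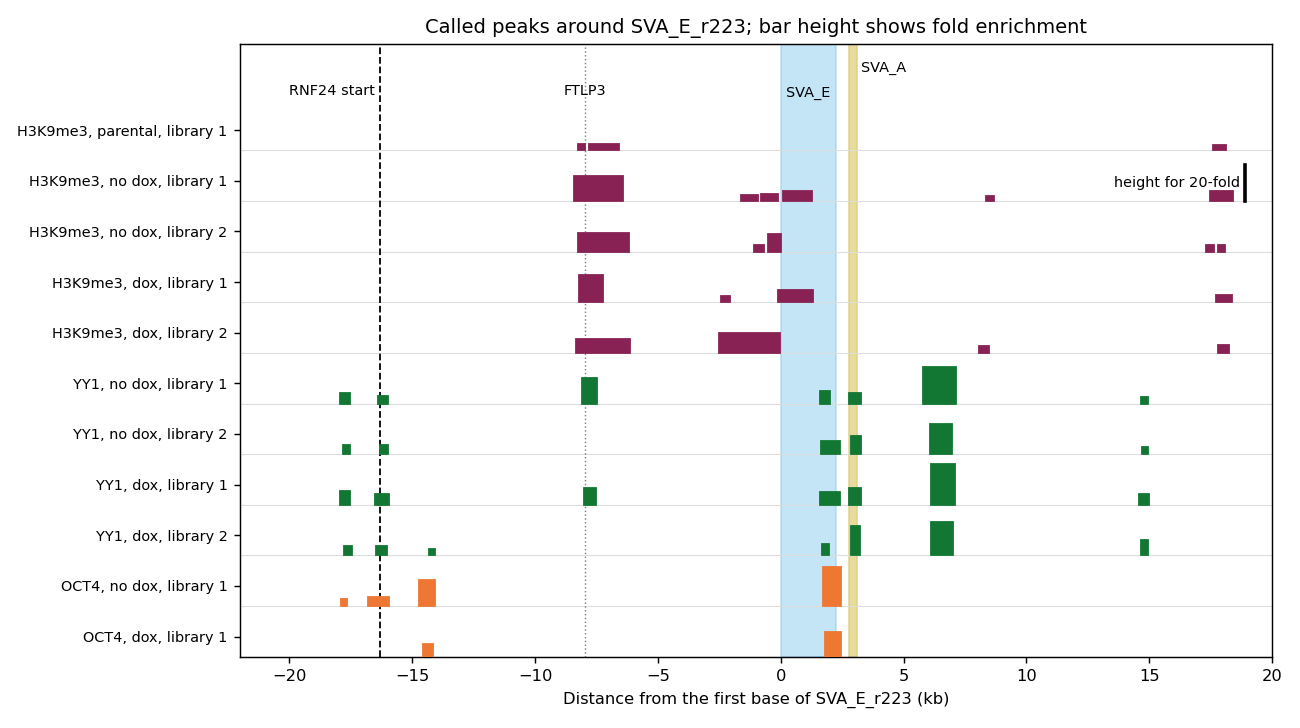
Called peaks of H3K9me3, YY1 and OCT4 in each of the 11 libraries by distance in kb from the first base of SVA_E_r223, with bar height showing fold enrichment, the SVAs shaded and the RNF24 start site dashed. YY1 and OCT4 bars stand on SVA_E_r223 in every library of those antibodies, and H3K9me3 bars on it or at its left edge in the 4 SCi-NCCIT libraries but not in the parental one.

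The RNA libraries held 15305909 to 49878613 estimated counts, the first without doxycycline being the shallowest, and 95.85% to 95.96% fell on annotated genes. ZNF10, the zinc finger gene whose KRAB domain is commonly used in such fusions, stood at 10.0, 11.8 and 10.7 CPM without doxycycline and 362, 374 and 459 CPM with it. Every treated library lay far above every untreated one, in the direction the labels give for the transgene. Markers of pluripotent cells were abundant, with summed levels of 1770 to 1960 TPM (transcript abundance scaled to transcript length and library size) over 12 genes without doxycycline. With doxycycline the sum was 1360 to 1510 TPM and 7 of the 12 fell, among them NANOG by 0.57 and TDGF1 by 1.13 on the log2 scale, while OCT4 itself did not pass the test (adjusted p = 0.527, edgeR). Their part in the changes below was not tested. Of those 7, SALL4 lost its call in 9 of 15 alternatives. Of the other marker lists, 1 gene each of endoderm (GATA6), mesoderm (MIXL1), neuroectoderm (NEUROG2) and stroma (THY1) rose and 0 of the 2 tested trophoblast genes did, but MIXL1 lost the call in 8 of 15 alternatives and NEUROG2, itself under 1 TPM in every library, in 11 of 14. The summed levels without and with doxycycline were 0.623 to 1.02 and 1.47 to 1.67 TPM for 5 endoderm genes, 106 to 145 and 112 to 124 for 4 mesoderm genes, 2.15 to 2.59 and 2.40 to 2.59 for 4 neuroectoderm genes, 76.2 to 100.0 and 94.8 to 109 for 6 stroma genes, and 2.57 to 3.48 and 3.55 to 4.14 for 3 trophoblast genes. Most of the mesoderm sum was HAND1 (104 to 143 TPM over all 6 libraries), OTX1 stood at 1.03 to 1.49 and GATA3 at 1.89 to 3.56 TPM. AFP, FOXA2, GATA4, SOX17, EOMES, TBXT, PAX6, SOX1, CGA and KRT7 were under 1 TPM in every library. In bulk RNA, fewer cells that express a gene and less RNA per cell cannot be told apart.

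RNF24 and SMOX, the nearest of the 7 genes on either side of the SVA, fell with doxycycline, and the other 4 tested genes did not pass the test. Of the 7 genes, 6 had enough reads to be tested, 2 fell and 0 rose at an adjusted p under 0.05 in edgeR's quasi-likelihood test over 16371 genes. Over all genes tested, 17.5% passed in either direction and 8.48% fell. The median log2 fold change of the 6 was -0.09, against -0.003 over all genes.

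RNF24 (ENSG00000101236) encodes a small membrane protein with a RING finger, the fold typical of ubiquitin ligases. It stood at 40.1, 44.6 and 45.4 CPM without doxycycline and 29.4, 29.1 and 30.2 CPM with it. Every treated library lay below every untreated one, and the treated values differed by little among themselves. The mean fell from 43.4 ± 2.88 to 29.6 ± 0.571 CPM (SD, n = 3 libraries each), and the fitted log2 fold change was -0.56 (SE 0.0639, 95% interval -0.70 to -0.41, adjusted p = 0.000541 from edgeR), or 0.679 of the untreated level. Of all tested genes, 5.51% had a lower log2 fold change. In TPM, which accounts for transcript length, RNF24 stood at 12.5 ± 1.1 without and 7.58 ± 0.957 with doxycycline.

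SMOX (ENSG00000088826) encodes spermine oxidase, which turns spermine into spermidine and hydrogen peroxide. Its CPM were 19.6, 17.0 and 15.7 without doxycycline and 14.4, 12.1 and 11.7 with it. The groups did not overlap, though the lowest untreated library lay close above the highest treated one. The mean went from 17.4 ± 2.01 to 12.7 ± 1.44 CPM, with a fitted log2 fold change of -0.44 (SE 0.108, 95% interval -0.68 to -0.20, adjusted p = 0.023 from edgeR). The call was lost when the second untreated library (adjusted p = 0.0641), the second treated library (0.0932) or the third treated library (0.0607) was left out, all in the same edgeR test. It was also lost in edgeR on counts scaled by transcript length (adjusted p = 0.0575 from edgeR) and in limma on log2(TPM + 0.5) (adjusted p = 0.0534 from limma).

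PANK2 (ENSG00000125779) encodes the mitochondrial pantothenate kinase, which opens coenzyme A synthesis and is mutated in a form of neurodegeneration with brain iron. Its CPM were 56.2, 56.6 and 54.3 without and 54.1, 52.5 and 50.6 with doxycycline. The groups just failed to overlap, as they did for RNF24 and SMOX, in a table where 17.8% of all tested genes were lower without overlap. The log2 fold change was -0.09 (95% interval -0.21 to 0.03, adjusted p = 0.279 from edgeR).

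PANK2 and RNF24 end on top of each other, with 2579 bp of exon shared on opposite strands. In the quantified transcripts the long PANK2 forms ENST00000316562 (2280 nt) and ENST00000610179 (1807 nt) were shorter than the 8484 and 8020 nt they have in the annotation used here. Of the forms as listed, the short PANK2 form ENST00000621891 lay wholly inside the RNF24 exon, with 18 to 52 estimated reads per library against 588 to 1956 for RNF24. The study names a directional kit for the RNA libraries. Whether counting used the strand is not given in the sources used here, so estimated counts of this stretch cannot be assigned to 1 of the genes with certainty.

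MAVS (ENSG00000088888), the mitochondrial adaptor of the RNA sensors RIG-I and MDA5, stood at 89.6, 90.5 and 84.8 CPM without and 83.2, 82.8 and 91.5 CPM with doxycycline. The highest value of all was a treated library, and the log2 fold change was -0.04 (95% interval -0.17 to 0.09, adjusted p = 0.688 from edgeR). CDC25B (ENSG00000101224), a phosphatase that activates CDK1 at the entry into mitosis, was the most abundant of the 7. It ran from 129 to 138 CPM without and 120 to 131 CPM with doxycycline, so the groups overlapped, and its log2 fold change was -0.10 (95% interval -0.23 to 0.03, adjusted p = 0.261 from edgeR).

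AP5S1 (ENSG00000125843), a subunit of the AP-5 adaptor of late endosomes, was measured at 6.95, 7.32 and 7.59 CPM without and 7.42, 6.95 and 7.44 CPM with doxycycline. Its log2 fold change was -0.01 (95% interval -0.21 to 0.19, adjusted p = 0.952 from edgeR), and its sign turned on the scale used, being 0.15 on length-scaled counts. ADRA1D (ENSG00000171873), the alpha-1D adrenergic receptor, had 2, 0 and 1 estimated reads without and 1, 0 and 3 with doxycycline, too few to test, and at most 0.0688 TPM. Its expression was not detectable at this depth beyond single reads.

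**Figure D2:**
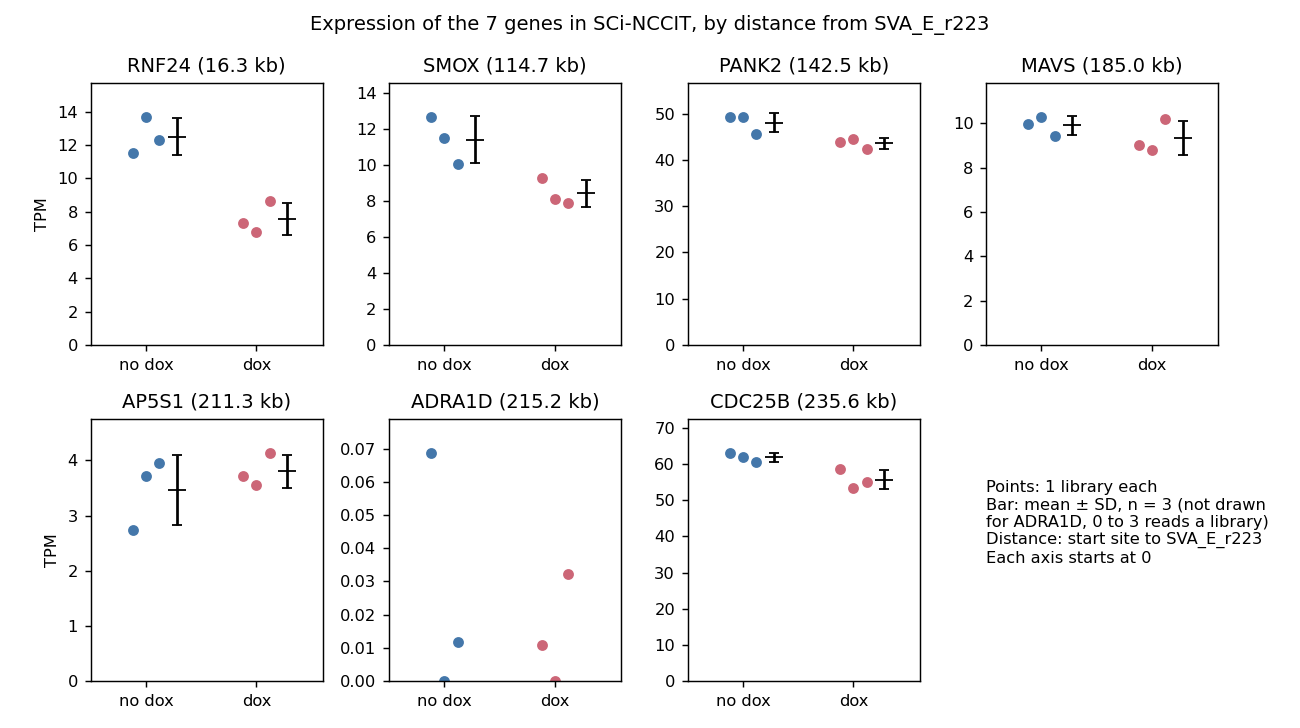
TPM of each of the 7 genes in the 3 libraries without and the 3 with doxycycline, panels ordered by distance from SVA_E_r223, with mean ± SD beside the points (none drawn for ADRA1D). RNF24 ranges from 11.5 to 13.7 TPM without and 6.76 to 8.63 TPM with doxycycline and its groups do not overlap, while the MAVS and AP5S1 groups do.

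By TPM without doxycycline the order was CDC25B (60.6 to 63.2), PANK2 (45.6 to 49.3), RNF24 (11.5 to 13.7), SMOX (10.1 to 12.7), MAVS (9.44 to 10.3), AP5S1 (2.74 to 3.95) and ADRA1D. RNF24 and SMOX overlapped in that order, as did SMOX and MAVS. With doxycycline RNF24 moved below MAVS and SMOX, the ranges being 53.5 to 58.6 for CDC25B, 42.3 to 44.5 for PANK2, 8.82 to 10.2 for MAVS, 7.89 to 9.30 for SMOX, 6.76 to 8.63 for RNF24 and 3.55 to 4.14 for AP5S1. MAVS and SMOX, and SMOX and RNF24, overlapped there. On the TPM scale the CDC25B groups did not overlap, as for RNF24, SMOX and PANK2. The share of all tested genes without overlap was counted on CPM only, where 17.8% were lower, so this is a description.

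Of the 6 other quantified genes of the stretch, 4 were tested and 0 passed in edgeR at an adjusted p under 0.05. Their log2 fold changes ran from -0.31 (SPEF1) to 0.19 (ADISSP), and ADISSP alone had an interval that left 0 out (0.01 to 0.37, adjusted p = 0.130 from edgeR). All 4 started 245.1 to 299.2 kb from the SVA, on the far side of CDC25B. DESeq2 also called 0 of them, and 1 (ADISSP) had an unadjusted p under 0.05 in edgeR.

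**Figure D3:**
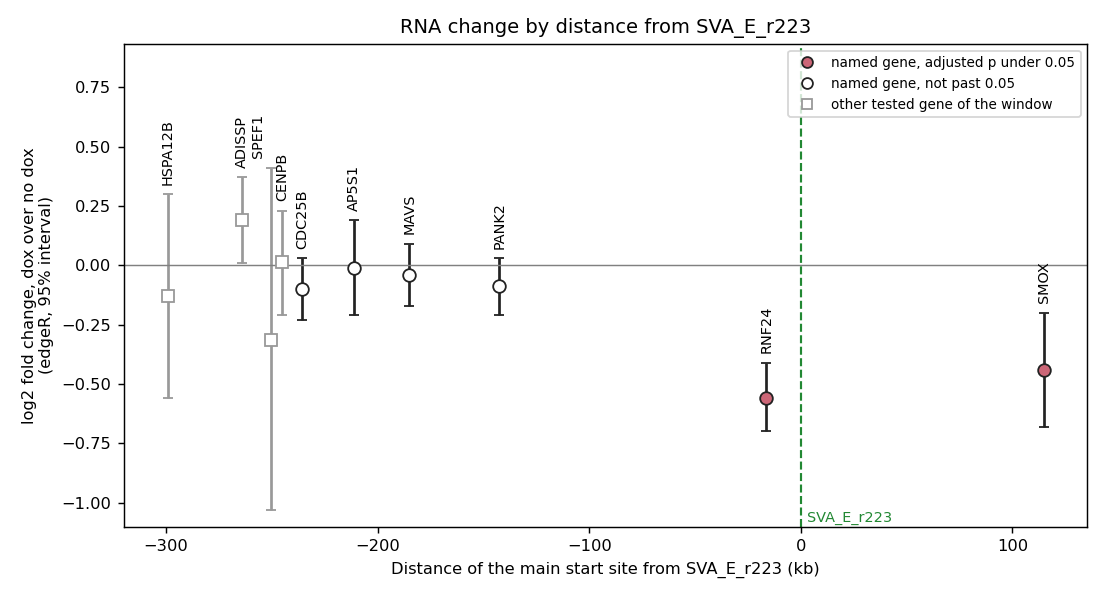
Log2 fold change with doxycycline (edgeR, 95% interval) against the distance in kb of each main start site from SVA_E_r223, for the 6 tested genes and the 4 other tested genes of the stretch. RNF24 at -0.56 and SMOX at -0.44 are the filled points, and the intervals of PANK2, MAVS, AP5S1 and CDC25B include 0.

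At the level of transcripts, the 3 RNF24 forms above 1 TPM had lower estimates with doxycycline, but none passed the test. The 7 genes had 46 transcripts in the files, of which 30 were tested, 23 reached a mean of 1 TPM in a condition and 8 were at 0 throughout. None passed an adjusted p of 0.05 in edgeR, where 0.603% of 71147 transcripts did. The number at an unadjusted p under 0.05 in edgeR was 5. The share of all transcripts at that unadjusted threshold was not counted, so the 5 have no background and are a description. On simulated data of this depth the transcript test recovered none of the changes put in, yet it called 429 transcripts in the real libraries. The simulation therefore does not measure the power of the test here. The lack of calls does not show that transcripts did not change. Of the 23, DESeq2 and a stricter count filter each called 1, the main RNF24 form.

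The main RNF24 form, ENST00000358395, starts at the 16.3 kb site and is 7328 nt long. It was estimated at 5.76, 5.66 and 6.51 TPM without and 4.09, 3.62 and 4.05 TPM with doxycycline. The groups did not overlap, and the log2 fold change on counts was -0.56 (SE 0.0887, adjusted p = 0.0709 from edgeR). The adjusted p was 6.53e-05 in DESeq2 and 0.0384 in edgeR with at least 10 counts in every library, and otherwise 0.135 to 0.303 over the remaining alternatives.

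The short form ENST00000545616, from nearly the same start, was estimated at 3.76, 4.79 and 3.52 TPM without and 2.08, 0.87 and 3.04 TPM with doxycycline, without overlap and with wide spread among the treated libraries (log2 fold change -0.98, adjusted p = 0.472 from edgeR). ENST00000432261, which starts inside the gene 57.5 kb from the SVA, went from 1.96 ± 0.266 to 1.13 ± 0.531 TPM with overlapping groups (adjusted p = 0.531 from edgeR). ENST00000336095 stayed under 1 TPM in every library. The main form made up 41.4% to 52.9% of RNF24 TPM without and 46.9% to 55.6% with doxycycline, ranges that overlapped.

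For SMOX, ENST00000305958 carried 77.3% to 87.6% of the gene's TPM without and 66.5% to 78.8% with doxycycline. It was estimated at 10.32, 8.92 and 8.86 TPM without and 7.33, 6.01 and 5.25 TPM with it, with no overlap (log2 fold change -0.54, adjusted p = 0.275 from edgeR). The remaining transcripts with an unadjusted p under 0.05 were ENST00000621507 of PANK2, ENST00000467519 of CDC25B and ENST00000615891 of AP5S1. Their log2 fold changes were -0.76, -0.45 and -0.44, and their adjusted p-values in edgeR were 0.245, 0.316 and 0.402. For the other genes the main forms were ENST00000336066 of PANK2 (16.7 TPM without and 17.6 with doxycycline), ENST00000439880 of CDC25B (28.2 and 26.1) and ENST00000428216 of MAVS (9.42 and 9.0). The division of reads between overlapping transcripts is an estimate and adds error that these values do not show. How many of all transcripts had groups without overlap was not counted.

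**Figure D4:**
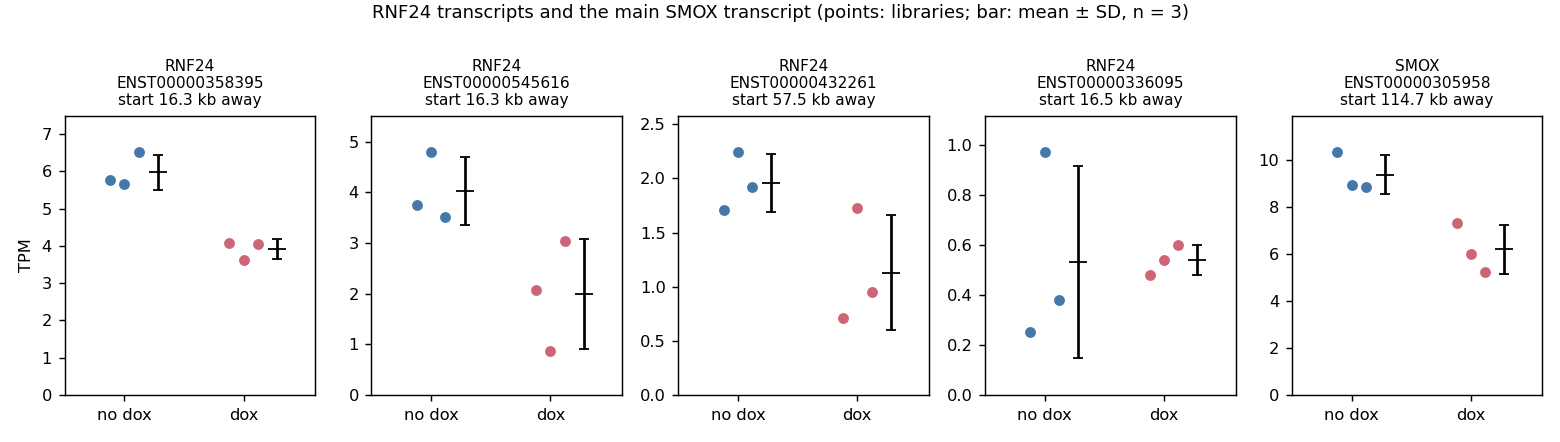
TPM of the 4 RNF24 transcripts and the main SMOX transcript in each library, with mean ± SD. ENST00000358395 and ENST00000545616 of RNF24 and ENST00000305958 of SMOX are lower in all 3 treated libraries, and the other 2 overlap.

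At the start sites of the 7 genes, YY1 was common, OCT4 was found only without doxycycline, and H3K9me3 was found at none in any of the 5 libraries (peaks that reach within 1 kb of the start). AP5S1 had the highest YY1 peaks, at 48.29 and 53.98 without and 64.89 and 64.69 with doxycycline, with summits 27 to 82 bp past the start. PANK2 followed at 30.98 and 33.33 without and 34.61 and 43.95 with it, but these summits lay 1116 to 1151 bp past the start. YY1 peaks also spanned the PANK2 start itself in all 4 libraries, in the second untreated one as a separate peak of 19.38. The highest peaks of AP5S1 and of PANK2 were higher in each treated library than in either untreated one. YY1 peaks shared between conditions were also higher with doxycycline genome-wide, by median ratios of 1.2 and 1.22. RNF24 had 4.27 and 5.08 without and 6.16 and 5.40 with doxycycline, a low peak that was kept. MAVS ranged from 6.42 to 11.94 and CDC25B from 4.82 to 7.20 over the 4 libraries. SMOX had a peak in 3 of 4 libraries, of at most 4.69, and ADRA1D in 1 of 4.

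The promoters of AP5S1 and RNF24 are shown because AP5S1 had the highest YY1 peaks of the 7 start sites, with summits near the start, and RNF24 fell most. They are RefSeq sequences (GRCh38.p14), 250 bases before to 50 after the start, in the direction of the gene, at chr20:3820297-3820596 (plus strand) and chr20:4015509-4015808 (minus strand). Of the 7 genes 5 matched an entry, and SMOX and ADRA1D did not. The CDC25B entry is for another start of the gene than the one used for its peaks and is not used here. Capitals mark ATGGCG, the core of the YY1 motif, or its reverse complement.

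AP5S1 promoter: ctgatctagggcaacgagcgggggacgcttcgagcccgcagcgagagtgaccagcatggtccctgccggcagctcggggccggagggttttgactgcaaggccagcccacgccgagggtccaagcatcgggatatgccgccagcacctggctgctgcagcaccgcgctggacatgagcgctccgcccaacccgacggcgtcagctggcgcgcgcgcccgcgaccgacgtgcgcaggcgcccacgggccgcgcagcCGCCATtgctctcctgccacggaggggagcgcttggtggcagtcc
RNF24 promoter: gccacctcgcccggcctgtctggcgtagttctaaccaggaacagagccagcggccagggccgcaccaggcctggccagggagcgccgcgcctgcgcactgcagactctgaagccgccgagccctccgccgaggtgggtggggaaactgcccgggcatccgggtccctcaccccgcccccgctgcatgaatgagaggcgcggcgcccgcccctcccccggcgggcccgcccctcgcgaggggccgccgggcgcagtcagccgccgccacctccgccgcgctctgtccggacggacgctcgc

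ATGGCG stood on the minus strand at bases 256 to 261 in AP5S1. It also stood on that strand at bases 11 to 16 of the PANK2 entry. That is away from the PANK2 summits above, but YY1 peaks also spanned the PANK2 start. ATGGCG was found in neither RNF24 nor MAVS. None of these 4 promoters held the longer YY1 motif AANATGGC, which overlaps the core, or the OCT4 octamer ATGCNAAT, all searched on both strands. Among 27305 RefSeq promoters of 300 bases, 11% held ATGGCG, 6.82% AANATGGC and 3.09% ATGCNAAT. In windows of 300 bases around 1434 YY1 summits of chromosome 20 in the first library without doxycycline, 26.4% held ATGGCG and 36.1% held AANATGGC. A match is a description of letters and not a bound site. No match says only that the letters are not in this window.

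Only the start of the most abundant transcript of each gene was scanned. OCT4 peaks without doxycycline stood at this start in PANK2 (6.46), AP5S1 (6.34), RNF24 (4.79), SMOX (4.22) and MAVS (4.14). CDC25B and ADRA1D had none there. With doxycycline none of the 5 remained within 1 kb. An OCT4 peak of 6.93 without doxycycline covered another annotated start of CDC25B, 245.1 kb from SVA_E_r223. No OCT4 peak lay in the CDC25B gene with doxycycline. In the whole stretch 11 OCT4 peaks without doxycycline became 2 with it. Genome-wide, 38.3% of OCT4 peaks without doxycycline were shared by the stricter rule above, with each summit inside the other peak. The 2 of the stretch were counted by plain overlap, so the measures differ. The 2 kept peaks were that on SVA_E_r223 and another 1.94 kb upstream of the RNF24 start site, at chr20:3997788-3998430, which went from 14.53 to 7.22, a ratio of 0.497. Each antibody condition of OCT4 was a single library, so these differences have no replicate check.

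Within the gene bodies, RNF24 had H3K9me3 peaks over 1553 and 1422 bp without doxycycline, 0 and 1554 bp with it, and 298 bp in parental cells, of its 88250 bp. The first treated library had none and the second as much as the untreated ones. YY1 covered 2028 and 2055 bp of RNF24 without and 3791 and 3451 bp with doxycycline, in 5 and 6 against 9 and 8 peaks, and its strongest intragenic peak reached 32.71. YY1 lists were longer with doxycycline as a whole, at 82005 and 115673 peaks against 56370 and 76098. In the stretch of 3.7 to 4.3 Mb, H3K9me3 peaks covered 27.7 and 21.3 kb without doxycycline, 16.8 and 23.0 kb with it, and 16.3 kb in parental cells, so the conditions overlapped.

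The partners of the 7 genes were counted in lists that leave out the 7 themselves. In polyamine metabolism, the pathway of SMOX, 3 of 21 tested genes rose and 2 fell. SAT2, a relative of the spermidine and spermine acetyltransferase SAT1, rose by 0.35 on the log2 scale, SLC3A2, an amino acid transporter subunit, fell by 0.30, and AZIN1, which protects ornithine decarboxylase, fell by 0.26. OAZ1, the antizyme that AZIN1 counters, and DHPS, which uses spermidine to make hypusine, each rose by 0.26. Each of the 5 lost its call in some of the 15 alternatives, SAT2 in 4, SLC3A2 and OAZ1 in 5, AZIN1 in 6 and DHPS in 9. One alternative, a minimum absolute log2 fold change of 0.5, ends every call below that size by construction. In coenzyme A metabolism, the pathway of PANK2, 5 of 12 rose and 1 fell. This list mixes synthesis enzymes with carriers and hydrolases, so the count gives no direction for synthesis. SLC25A16, a mitochondrial carrier linked to coenzyme A, fell by 1.13, from 34.0 ± 1.70 to 15.6 ± 0.543 CPM, while PANK4, a relative of PANK2, rose by 0.92 and NUDT8, a hydrolase family member, by 0.87. The synthesis enzymes PPCS and COASY rose by 0.34 and 0.22 and the carrier SLC25A42 by 0.25. Of 15 alternatives SLC25A16 lost its call in 0, PPCS in 1, NUDT8 in 2, PANK4 in 6, COASY in 7 and SLC25A42 in 11. These shares stand beside the 17.5% of all genes that passed.

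In signalling through MAVS, 3 of 24 rose and 1 fell, near the 17.5% of all tested genes that passed in either direction. That share also stands beside the lists that follow. STING1, the adaptor of DNA sensing, was up by 1.00. IKBKG, the regulatory subunit of the IKK complex, was up by 0.62, and TRAF3, a ubiquitin ligase, by 0.22. PCBP2, an RNA-binding protein that promotes MAVS turnover, fell by 0.22. STING1 and IKBKG kept their calls in all 15 alternatives, while PCBP2 lost its call in 5 and TRAF3 in 10. Of 18 genes around CDC25 and CDK1, 0 rose and 1 fell (WEE1, the kinase that opposes CDC25, by 0.22). None of the 5 partners of AP5S1 (AP5Z1, AP5B1, AP5M1, SPG11 and ZFYVE26) passed in edgeR or DESeq2, and 1 (AP5M1) had an unadjusted p under 0.05. Of 5 tested adrenergic receptors ADRA2B fell by 0.56, and of 9 membrane RING proteins RNF13 fell by 0.27 while RNF133 and RNF148 rose from under 0.1 to 0.451 and 0.558 CPM. RNF13 lost its call in 11 of 15 alternatives and WEE1 in 3, and ADRA2B in 0. YY1 RNA was 140 ± 2.96 CPM without and 130 ± 4.61 CPM with doxycycline (adjusted p = 0.202 from edgeR).

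The 5 genes whose pattern over the 6 RNA libraries was most like that of RNF24, by the root mean square difference of centred log2 CPM among 16370 genes, were PPP1R3B (0.0472), SEC63 (0.0504), SRSF10 (0.0515), CILK1 (0.0553) and TBL1XR1 (0.0557). Their log2 fold changes, -0.60 to -0.47, are near that of RNF24 because they were chosen on these libraries, and are a description only. None of them lies in the stretch.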

How the data were processed

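Gene expression was read by RNA-seq and H3K9me3, YY1 and OCT4 by ChIP-seq. Per the labels and the study's methods, the authors made estimated counts and TPM per transcript with kallisto, and mapped ChIP reads with BWA to hg19, keeping mapping quality over 10 and peaks at a 5% false discovery rate. Each deposited peak list gives a fold enrichment and −log10 p and q, set by the authors' caller, which is not named in the sources used here.

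Estimated counts were summed per gene (GENCODE, GRCh37), rounded, filtered (filterByExpr), TMM-normalised and tested in edgeR 4.0.16 (R 4.3.3) with the quasi-likelihood test and Benjamini-Hochberg adjustment over all genes. Depth, 15305909 to 49878613 counts per library, limits low genes. Peaks were compared by an overlap of at least 1 bp (bedtools 2.31.1). Ratios and genome-wide shares of shared peaks instead required the summit of each peak to lie inside the other. DESeq2 1.42.0, limma 3.58.1, other filters and each library left out were alternatives. Scripts were tested on simulated data. There the gene test recovered 56.6% of changes of 0.5 and 74.3% of changes of 1 on the log2 scale, with 10 of 141 calls false. A gene that did not pass is therefore not shown to be unchanged.

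The 7 genes and all lists were chosen with earlier results of these data known. The rule named the 7 genes and their transcripts with a mean of at least 1 TPM, up to 3 called partners per list by size of change, called genes of the stretch and the 5 genes most like RNF24. The text gives most transcripts only as counts, and names further called partners, markers and stretch genes chosen after their values were seen. HiChIP tables (16 value columns) were not used here, since their columns could not be tied to samples. The sequences of the SVAs are not reported here.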

Additional observations from a re-analysis of the deposited data

How the results depend on the processing

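RNF24 kept its direction and stayed under an adjusted p of 0.05 in all 15 alternatives run, with log2 fold changes of -0.72 to -0.52. SMOX stayed lower in all 15, but lost the call on length-scaled counts (-0.38), in limma on log2(TPM + 0.5) (-0.42) and under a minimum absolute log2 fold change of 0.5 (-0.44). With 1 library left out SMOX ranged from -0.54 to -0.36. AP5S1 turned positive on length-scaled counts (0.15) and in limma with a pseudocount of 0.5 (0.13) or 0.1 (0.14), and ran from -0.038 to 0.023 with 1 library left out. The cause was not tested.

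Genes called numbered 2858 in edgeR, 1901 on length-scaled counts, 1735 in limma with either pseudocount, 976 at the minimum fold change, and 1396 (without the second treated library) to 3259 with 1 library left out. They were 1469 without the second untreated library, 1748 without the third and 1749 without the first treated one. The split was 1469 higher and 1389 lower in edgeR, and 727 and 1008 in limma at 0.5. Transcripts called numbered 429, and 2767 in DESeq2, 825 with at least 10 counts in every library and 38 to 73 with 1 library left out.

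Correlations of deviations were 0.128, 0.0799 and -0.000942 for RNA libraries of the same number and -0.127 to 0.0598 for unlike numbers. For untreated libraries 1 and 2 the same-numbered value was the highest. The labels do not say whether library numbers pair the samples, and these small values cannot settle it. With the replicate block, 3316 genes and 7 transcripts were called, RNF24 was at -0.55 and SMOX at -0.45, both called in edgeR.

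When at least 50% of SVA_E_r223 had to be covered, H3K9me3 was left in 1 library without and 1 with doxycycline, and YY1 and OCT4 in 0 in either condition, since those peaks are narrower than that. Extending the SVA by 500 bp gave H3K9me3 in 2 treated and 2 untreated libraries, all 4 of SCi-NCCIT. With 1 library left out, 1 untreated and 0 to 1 treated libraries had H3K9me3 and 1 in each condition had YY1, by construction. Read depth limits ADRA1D, and single OCT4 libraries limit every OCT4 difference.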

Other observations

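The pseudogene FTLP3, between RNF24 and SVA_E_r223, carried an H3K9me3 peak in all 5 libraries. Its fold enrichment was 3.6 in parental NCCIT, 13.52 and 10.29 in SCi-NCCIT without doxycycline and 14.76 and 7.66 with it. The treated values spanned the untreated ones. YY1 was also found there in the first library of each condition, at 14.18 without and 9.01 with doxycycline.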
